A study of Mus musculus with 8 samples.

Results

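The genes of fatty acid oxidation, together with targets of the nuclear receptor PPAR-alpha, were followed in mouse liver as a list of 36 genes out of 19505 genes named on the array. Members were found by the gene name on the array's non-control probes, with older synonyms accepted. The list was chosen with earlier results of these data known, so its shares are described and not tested. All 36 had a probe, and the list had 49 probes in all. Male C57BL/6 mice, 14 to 17 weeks old at the start, ate either a standard chow (STD) diet or an atherogenic (ATH) diet for 4 weeks. The ATH diet was high in fat and cholesterol and contained cholic acid, a bile acid, so those 3 components changed together. The study's methods give the diets as feeds of different makers, so other components may have differed too. The mice were wild type, and the study's methods give the substrain as C57BL/6J. RNA of whole liver was taken from 4 mice per diet and read in a single color on 8 Agilent arrays covering the mouse genome, each mouse having an array of its own.

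Fatty acids that enter a hepatocyte are joined to coenzyme A, carried into mitochondria as carnitine esters, and shortened there in repeated rounds of dehydrogenation, hydration, dehydrogenation and thiolysis. Peroxisomes shorten very long chains first. The products feed the respiratory chain and ketone body synthesis, and in the fasted liver the pathway supplies energy when glucose is scarce. PPAR-alpha binds fatty acids, pairs with the retinoid X receptor, and switches on much of this machinery from a paired DNA element.

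Expression is given as the scaled log2 signal, which is the log2 of the array's processed signal minus the 75th percentile of that array, so that 0 is the 75th percentile and a difference of 1 is a doubling of signal. Levels of different genes cannot be set against each other on this scale, because each probe has its own brightness. A difference between diets is given as a log2 fold change, ATH over STD, with its standard error (SE). Diet was tested with limma over all 31056 detected probes, and a gene passed when its Benjamini-Hochberg adjusted p was under 0.05. The brightest probe of each gene was used, and 16554 genes had one that was detected.

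On the ATH diet, 35 of the 36 members (97.2%) had a lower mean than on the STD diet, and Fgf21 alone had a higher one. Of all genes, 65.1% had a lower mean. The median log2 fold change of the members was -0.63, against -0.14 for all genes. By limma, 13 members (36.1%) fell and 0 rose. Over all genes, 5.3% fell and 4.05% rose at the same threshold. At an unadjusted p under 0.05, 28 members were lower and 1, Fgf21, was higher, and 19.5% of all genes were lower. At a false discovery rate of 1% only Pdk4 of the 36 passed, and 0.381% of all genes fell at that rate. In 19 members (52.8%), every ATH array was below every STD array, as was so for 14.6% of all genes.

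**Figure D1:**
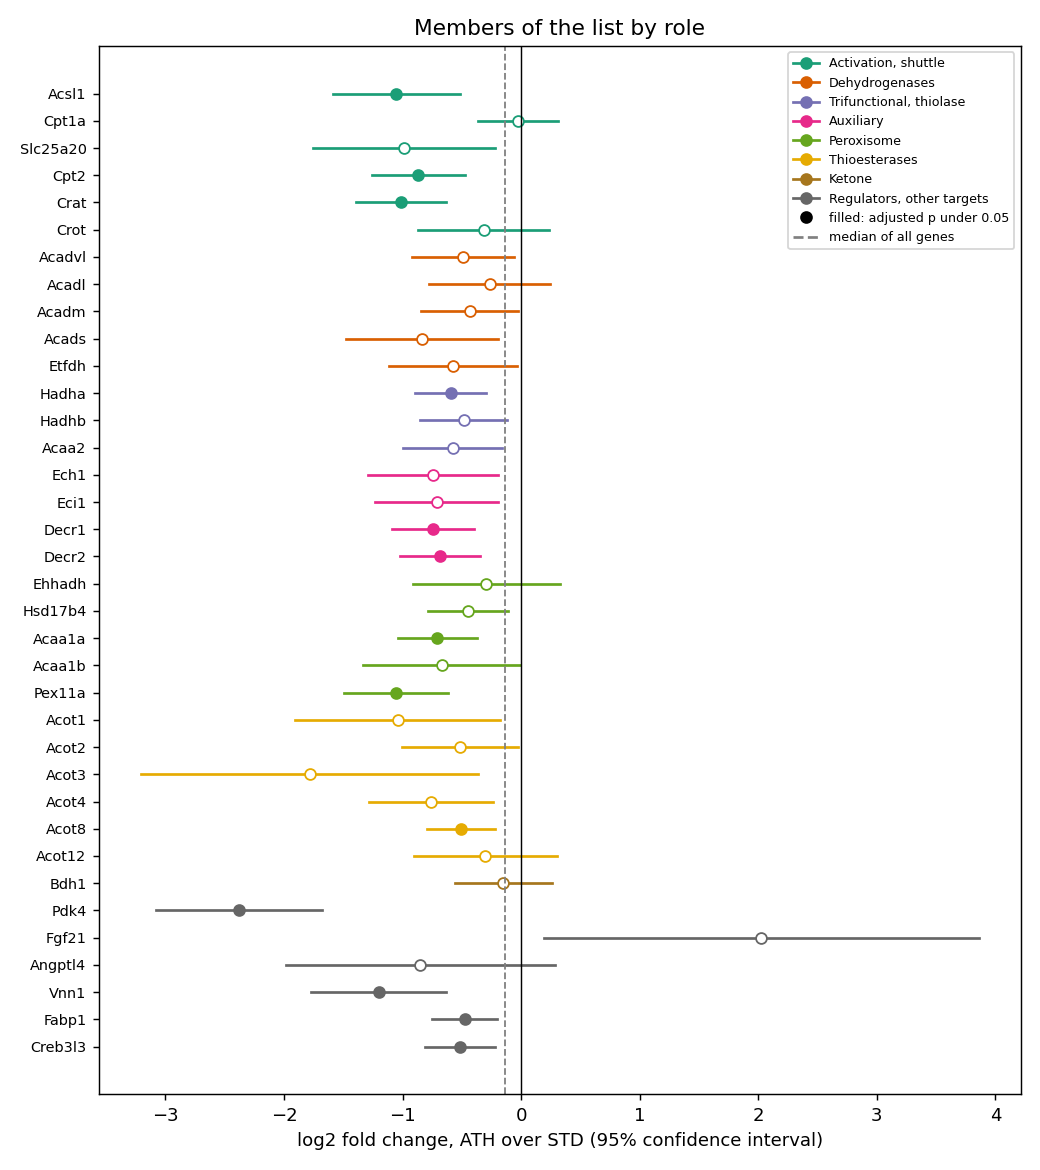
Log2 fold change (ATH over STD) of each of the 36 members, ordered and coloured by role, with its 95% confidence interval from limma; filled points passed an adjusted p under 0.05, and the dashed line is the median of all genes, -0.14. The 13 filled points all lie to the left of 0, with Pdk4 the farthest at -2.38, and Fgf21 is the only point to the right.

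How many members passed depended on how the arrays were scaled and on single arrays. The STD arrays shared a slide and the ATH arrays shared another, and effects of slide and of diet therefore cannot be told apart. Before scaling, the 75th percentile was 0.446 higher on the ATH arrays (log2), whereas 10 spike-in probes had a median 0.137 higher. With spike-in scaling or no scaling, 3 members fell, Crat, Pdk4 and Pex11a in each case, and all genes then had a median of 0.17 and 0.31. Of all genes, 1.4% fell with spike-in scaling and 1.35% with no scaling. With quantile normalization 7 members fell (3% of all genes) and with median scaling 8 (2.92%). With normexp background correction 18 members fell, and so did 17% of all genes. Without STD replicate 1 or STD replicate 3, Pdk4 alone passed. Without ATH replicate 3 or ATH replicate 4, Pdk4 and Crat passed. Without STD replicate 4, Vnn1, Pex11a, Crat and Pdk4 passed. Without STD replicate 2, Crat, Pdk4, Pex11a, Acads and Slc25a20 passed. Without ATH replicate 1 or ATH replicate 2, 11 and 14 members passed, of which 10 and 12 were among the 13. The share of all genes that fell moved too, from 0.809% to 7.37% over these 8 omissions. With the methods' t-test 0 members passed after adjustment, and 0.0483% of all genes fell. By that test 18 members were lower at an unadjusted p under 0.05, and the share of all genes was not counted.

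The element that PPAR-alpha and its partner bind is a direct repeat of AGGTCA with 1 base between, AGGTCANAGGTCA. It was searched on both strands of promoter windows of 300 bases (250 before to 50 after the start site, RefSeq, GRCm38.p6), with at most 2 mismatches over its 12 fixed letters. Windows were given for 30 of the 36 members, 34 windows in all, and not for Acaa2, Angptl4, Crat, Decr1, Hsd17b4 and Vnn1. Of the member windows 5 (14.7%) held a match, against 3.86% of 32851 windows of all genes. With at most 1 mismatch the shares were 5.88% and 0.554%. A match of letters describes the window and does not show binding. The matched stretches are printed below 5′ to 3′ on the strand of the gene, with the 13 bases of the match in capitals. The expression of their genes is described further on. The Slc25a20 match begins 6 bases after the start site and is given alone. In Fabp1, Acot12 and Acot4 the repeat reads on the opposite strand.
Fabp1, chr6:71199788-71199848 (+), match from -67 to -55, 1 mismatch: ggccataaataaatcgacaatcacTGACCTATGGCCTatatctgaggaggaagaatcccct
Acot12, chr13:91741387-91741447 (+), match from -110 to -98, 1 mismatch: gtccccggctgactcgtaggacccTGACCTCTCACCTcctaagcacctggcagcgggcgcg
Creb3l3, chr10:81092764-81092824 (-), match from -209 to -197, 2 mismatches: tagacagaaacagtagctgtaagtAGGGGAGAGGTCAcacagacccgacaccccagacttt
Acot4, chr12:84038342-84038378 (+), match from -13 to -1, 2 mismatches: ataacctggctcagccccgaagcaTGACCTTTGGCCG
Slc25a20, chr9:108662142-108662154 (+), match from 6 to 18, 2 mismatches: AGGTGAAAGGTCG

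Of these 5 genes, Fabp1 and Creb3l3 fell, whereas Acot4, Slc25a20 and Acot12 did not pass. The windows of Pdk4, Pex11a and Acsl1, which changed more, held no match within 2 mismatches in these 300 bases.

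Activation and transport into mitochondria involve 6 members, all with a lower mean on the ATH diet, and 3 of them fell. Acsl1, which joins long-chain fatty acids to coenzyme A, had scaled log2 signals of 7.65, 7.73, 7.42 and 7.24 on the STD arrays and 6.84, 6.83, 6.32 and 5.84 on the ATH arrays. All ATH values were below all STD values, and the 2 lowest were those of ATH 3 and ATH 4. Acsl1 fell by 1.05 on the log2 scale (SE 0.24, adjusted p = 0.0362 by limma), to 48.2% of the STD level. The other 2 Acsl1 probes gave -1.26 each and passed as well.

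Cpt1a, the outer mitochondrial carnitine palmitoyltransferase that sets the pace of entry, was the member nearest to no difference. Its values were 4.41, 4.27, 4.05 and 4.10 on STD and 4.45, 4.26, 4.04 and 3.98 on ATH, so the groups overlapped throughout. The log2 fold change was -0.03 with a 95% confidence interval of -0.36 to 0.31 (adjusted p = 0.924 by limma), and it was above 0 under every other scaling, at 0.42 without scaling. The second Cpt1a probe gave -0.31 (adjusted p = 0.334).

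Cpt2, the inner-membrane enzyme that releases the acyl group again, fell. Its values were 6.52, 6.40, 6.37 and 6.19 on STD and 5.85, 5.69, 5.20 and 5.27 on ATH, without overlap. This was a log2 fold change of -0.87 (SE 0.17, adjusted p = 0.0267 by limma). Crat, which attaches short acyl groups to carnitine, went from 2.32, 2.15, 2.07 and 1.93 to 1.49, 1.12, 0.96 and 0.85, again without overlap. Its log2 fold change was -1.01 (SE 0.17, adjusted p = 0.0167). It passed with no scaling and with quantile, median and spike-in scaling, and not when arrays were centred on hepatocyte markers (adjusted p = 0.0812).

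Slc25a20, the carrier that exchanges acylcarnitine for carnitine across the inner membrane, had 2.92, 1.52, 2.89 and 2.58 on STD and 1.38, 0.92, 1.84 and 1.82 on ATH. STD 2 lay within the range of the ATH arrays. Slc25a20 differed by -0.99 on the log2 scale (SE 0.34, adjusted p = 0.0982 by limma), and without STD replicate 2 the adjusted p was 0.0388. Crot, the peroxisomal carnitine octanoyltransferase, differed by -0.32 (adjusted p = 0.413), with ATH 1 and ATH 2 inside the STD range and ATH 3 and ATH 4 below it.

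The acyl-CoA dehydrogenases take the opening step of each mitochondrial round, each for its own chain lengths, and Etfdh passes their electrons on to the respiratory chain. None of these 5 members passed the test, and all 5 had a lower mean on ATH. The log2 fold changes were -0.49 for Acadvl (very long chains, adjusted p = 0.131), -0.27 for Acadl (long chains, 0.46), -0.43 for Acadm (medium chains, 0.156), -0.83 for Acads (short chains, 0.0959) and -0.58 for Etfdh (0.153). In Acadvl, the only one without overlap, the values were 7.75, 7.71, 7.46 and 7.47 on STD and 7.46, 7.38, 6.79 and 6.80 on ATH, with 7.458 on ATH 1 just below 7.464 on STD 3.

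Acads stood apart in its pattern over the mice. It had 3.88, 2.66, 3.79 and 3.72 on STD and 2.27, 2.66, 2.92 and 2.87 on ATH. STD 2 was at the level of the ATH arrays, as it was for Slc25a20, and in both genes ATH 1 and ATH 2 were the lowest arrays, whereas ATH 3 and ATH 4 were the lowest for most other members. Without STD replicate 2, Acads passed (adjusted p = 0.0307). For Etfdh the second probe passed (log2 fold change -0.75, adjusted p = 0.0327) and the brightest did not.

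The remaining steps of the mitochondrial round are carried out on long chains by the trifunctional protein, whose subunits are Hadha and Hadhb, and by the thiolase Acaa2. All 3 were lower on every ATH array than on any STD array. Hadha fell, from 1.74, 1.38, 1.54 and 1.53 on STD to 1.13, 0.95, 0.94 and 0.79 on ATH. Its log2 fold change was -0.60 (SE 0.13, adjusted p = 0.0346 by limma), while another detected Hadha probe gave -0.44 (adjusted p = 0.274). Hadhb differed by -0.48 (SE 0.16, adjusted p = 0.093) and Acaa2 by -0.58 (SE 0.18, adjusted p = 0.0829). The 2 subunits, which work in one complex, differed between diets by similar amounts, with overlapping confidence intervals of -0.89 to -0.30 for Hadha and -0.85 to -0.12 for Hadhb.

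Unsaturated fatty acids need auxiliary enzymes that move or reduce their remaining unsaturated bonds. All 4 such members were lower on ATH by a similar amount, between -0.74 and -0.68 on the log2 scale. Decr1, the mitochondrial dienoyl-CoA reductase, fell from 0.07, 0.16, -0.02 and -0.26 to -0.51, -0.64, -0.91 and -0.97, a log2 fold change of -0.74 (SE 0.15, adjusted p = 0.0296 by limma), and its second probe gave -0.75. Decr2, the peroxisomal counterpart, fell from 4.39, 4.17, 3.91 and 3.86 to 3.43, 3.53, 3.27 and 3.36, a log2 fold change of -0.68 (SE 0.15, adjusted p = 0.0339). In neither did the diets overlap. The isomerases Ech1 (-0.74, SE 0.24, adjusted p = 0.0879) and Eci1 (-0.71, SE 0.23, adjusted p = 0.0863) had equally large differences with more spread among the ATH arrays, where Ech1 ran from 4.76 on ATH 1 to 3.72 on ATH 4.

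Peroxisomal oxidation and peroxisome number are represented by 5 members. Pex11a, which promotes the division of peroxisomes, fell from 5.88, 6.03, 5.90 and 5.31 on STD to 4.85, 4.88, 4.80 and 4.37 on ATH. Each diet had 3 arrays close together and replicate 4 lower, and the groups did not overlap. Pex11a thus had a log2 fold change of -1.06 (SE 0.19, adjusted p = 0.0211 by limma), 48.1% of the STD level.

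The peroxisomal thiolases Acaa1a and Acaa1b are close copies on chromosome 9, with probes at positions between 118828412 and 119030499 of the array design (mm7), so signal of one could reach the probe of the other. Acaa1a fell from 7.62, 7.57, 7.41 and 7.51 to 7.10, 6.95, 6.63 and 6.60. Its log2 fold change was -0.71 (SE 0.15, adjusted p = 0.0298 by limma), and its other 2 probes gave -0.79 and -0.67, of which the former passed. Acaa1b had a similar difference, -0.67, but STD 4 at 6.92 lay below ATH 1 at 7.34 and it did not pass (adjusted p = 0.172).

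The multifunctional enzymes that do the middle steps in the peroxisome were Ehhadh and Hsd17b4. Ehhadh overlapped between the diets, with a log2 fold change of -0.29 (95% confidence interval -0.91 to 0.32, adjusted p = 0.504 by limma), and it was 0.02 with spike-in scaling and 0.15 without scaling. Hsd17b4, which also serves the shortening of bile acid precursors, differed by -0.45 (SE 0.15, adjusted p = 0.0919) without overlap.

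Acyl-CoA thioesterases split acyl-CoA into free acid and coenzyme A. Acot1, Acot2, Acot3 and Acot4 are related neighbours on chromosome 12, with probes between positions 81989158 and 82054734 (mm7), and shared signal between their probes cannot be told apart here. All 6 thioesterases had a lower mean on ATH, and 1 fell. This was Acot8, a peroxisomal enzyme, with 3.43, 3.23, 3.51 and 3.14 on STD and 2.92, 2.80, 2.79 and 2.77 on ATH. The ATH arrays were close together and all below the STD arrays, and the log2 fold change was -0.51 (SE 0.13, adjusted p = 0.0451 by limma). It did not pass without any one of the 8 arrays, with adjusted p from 0.0541 to 0.118.

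The cytosolic Acot1 had a larger difference with more spread, from 3.87, 3.58, 3.52 and 2.57 on STD to 3.33, 2.27, 2.06 and 1.71 on ATH. Acot1 had a log2 fold change of -1.04 (SE 0.38, adjusted p = 0.117 by limma). The peroxisomal Acot3 was dim and was detected on 3 STD arrays and 1 ATH array, with values from -5.20 to -2.43 on STD and from -6.74 to -4.52 on ATH. The log2 fold change of -1.78 (SE 0.63, adjusted p = 0.106) therefore rests largely on arrays near background, and it was -0.56 with normexp background correction. Acot4, also peroxisomal, differed by -0.76 without overlap (adjusted p = 0.0741), and its second probe passed at -0.81 (adjusted p = 0.0406). The mitochondrial Acot2 differed by -0.51 (adjusted p = 0.156) and the cytosolic Acot12 by -0.30 (adjusted p = 0.481), the latter with ATH 1 at 3.53 and ATH 2 at 3.47 inside the STD range.

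Bdh1, which interconverts the main ketone bodies, had 6.40, 5.77, 5.90 and 5.87 on STD and 5.88, 6.14, 5.63 and 5.69 on ATH. The diets overlapped, and the log2 fold change was -0.15 (95% confidence interval -0.56 to 0.26, adjusted p = 0.613 by limma). It was above 0 without scaling, with spike-in scaling and with quantile normalization.

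Regulators, secreted factors and other targets gave the widest range of differences among the members. Pdk4, a kinase that shuts off pyruvate dehydrogenase and so spares glucose while fat is burned, had 1.84, 1.16, 1.45 and 0.27 on STD and -0.92, -1.12, -1.21 and -1.54 on ATH. STD 4 was the lowest of its diet but still more than 1 log2 unit above every ATH array. Its log2 fold change was -2.38 (SE 0.31, adjusted p = 0.00805 by limma), leaving 19.2% of the STD level. It passed at 5% with each array left out in turn (adjusted p from 0.00393 to 0.0304) and under every other alternative but the methods' t-test (adjusted p = 0.0993).

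Vnn1, the pantetheinase that returns vitamin B5 from pantetheine for coenzyme A synthesis, fell from 1.61, 1.32, 1.26 and 0.58 to 0.37, -0.20, 0.18 and -0.39. The log2 fold change was -1.20 (SE 0.25, adjusted p = 0.03 by limma), or 43.5% of the STD level, and the diets did not overlap. Fabp1, the abundant liver fatty acid binding protein whose matched stretch was printed above, had 9.16, 9.11, 9.15 and 9.14 on STD and 8.72, 8.86, 8.56 and 8.52 on ATH. Its STD arrays differed by little, the SD being 0.02, and its log2 fold change was -0.48 (SE 0.12, adjusted p = 0.0464). Creb3l3, a liver transcription factor that acts with PPAR-alpha on fasting genes, fell from 6.28, 6.19, 6.21 and 6.08 to 5.89, 5.77, 5.53 and 5.51, with a log2 fold change of -0.51 (SE 0.13, adjusted p = 0.0477). With no scaling, Fabp1 differed by -0.03 and Creb3l3 by -0.07.

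The secreted members Angptl4 and Fgf21 varied widely between mice of one diet. Angptl4, an inhibitor of lipoprotein lipase, had 6.70, 5.93, 5.78 and 5.52 on STD and 5.49, 4.17, 6.504 and 4.36 on ATH, so that ATH 3 was higher than 3 of the STD arrays and ATH 2 and ATH 4 were the lowest. Its log2 fold change was -0.85 with a 95% confidence interval of -1.98 to 0.28 (adjusted p = 0.291 by limma). Fgf21, a fasting hormone made by the liver, had -1.55, -2.82, -5.17 and -5.16 on STD and -1.75, -1.10, -1.03 and -2.72 on ATH. STD 1 and STD 2 were within or near the ATH range, and STD 3 and STD 4 were far below. The log2 fold change was 2.02 with a 95% confidence interval of 0.19 to 3.86 (adjusted p = 0.143 by limma). The second Fgf21 probe gave 0.26 (adjusted p = 0.751), so the 2 probes disagreed in size. The probe used was the brighter of them only on ATH, with a mean of -1.65 against -3.07. On STD its mean was -3.67 against -3.33, and it was dim on STD 3 and STD 4. With normexp background correction the brightest Fgf21 probe gave 0.88.

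**Figure D2:**
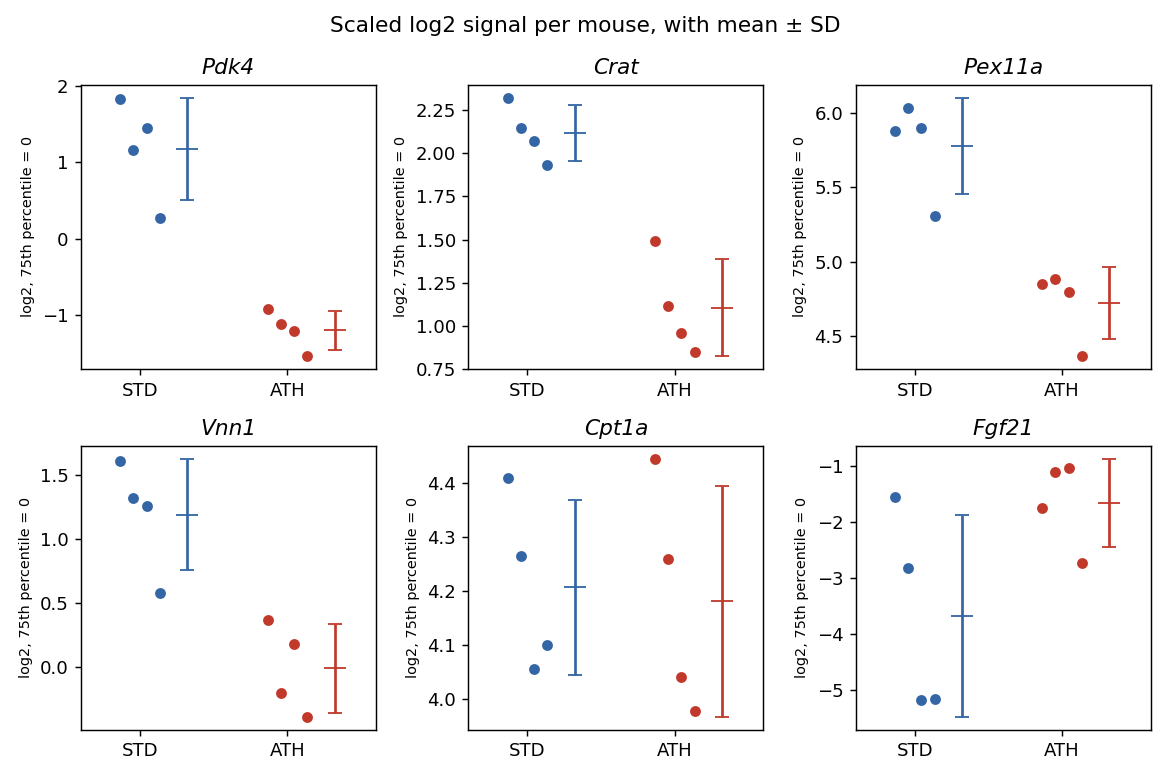
Scaled log2 signal of 6 members in each mouse (blue STD, red ATH; vertical axes differ between panels), with the mean and SD of the 4 mice beside the points. Pdk4, Crat, Pex11a and Vnn1 do not overlap between diets, Cpt1a overlaps throughout, and Fgf21 has its 2 lowest points in STD mice at -5.17 and -5.16.

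Of the 36 members, 10 had more than 1 probe, and the detected probes of all 10 differed between diets in the same direction. The closest were Decr1 and Acot4, and the widest apart was Fgf21.

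Levels also differed among mice of the same diet in a way that many members shared. The median of the members, each taken relative to its STD mean, was 0.20, 0.11, -0.06 and -0.19 on STD 1 to STD 4 and -0.29, -0.42, -0.81 and -0.81 on ATH 1 to ATH 4. Every ATH array was below every STD array in this median. STD 4 was the lowest of the STD arrays for 21 of the 36 members and ATH 4 was the lowest of the ATH arrays for 26, while STD 1 and ATH 1 were the highest of their diet for 27 and 23. Both arrays with the number 4 held the same position on their slides, as did both with the number 1. For 30 members ATH 3 and ATH 4 were both below ATH 1 and ATH 2. This order was not counted over all genes, and it was not particular to the members. On ATH 1 to ATH 4, 18 hepatocyte markers had medians of -0.27, -0.16, -0.59 and -0.57. For 107 other genes of the pathway they were -0.26, -0.28, -0.62 and -0.63. Macrophage and Kupffer cell markers went the other way, at 1.70, 0.74, 2.60 and 2.71. The 75th percentile subtracted from each array was also higher on ATH 3 and ATH 4 (9.42 and 9.46) than on ATH 1 and ATH 2 (9.27 and 9.11), and its part in this split was not tested.

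**Figure D3:**
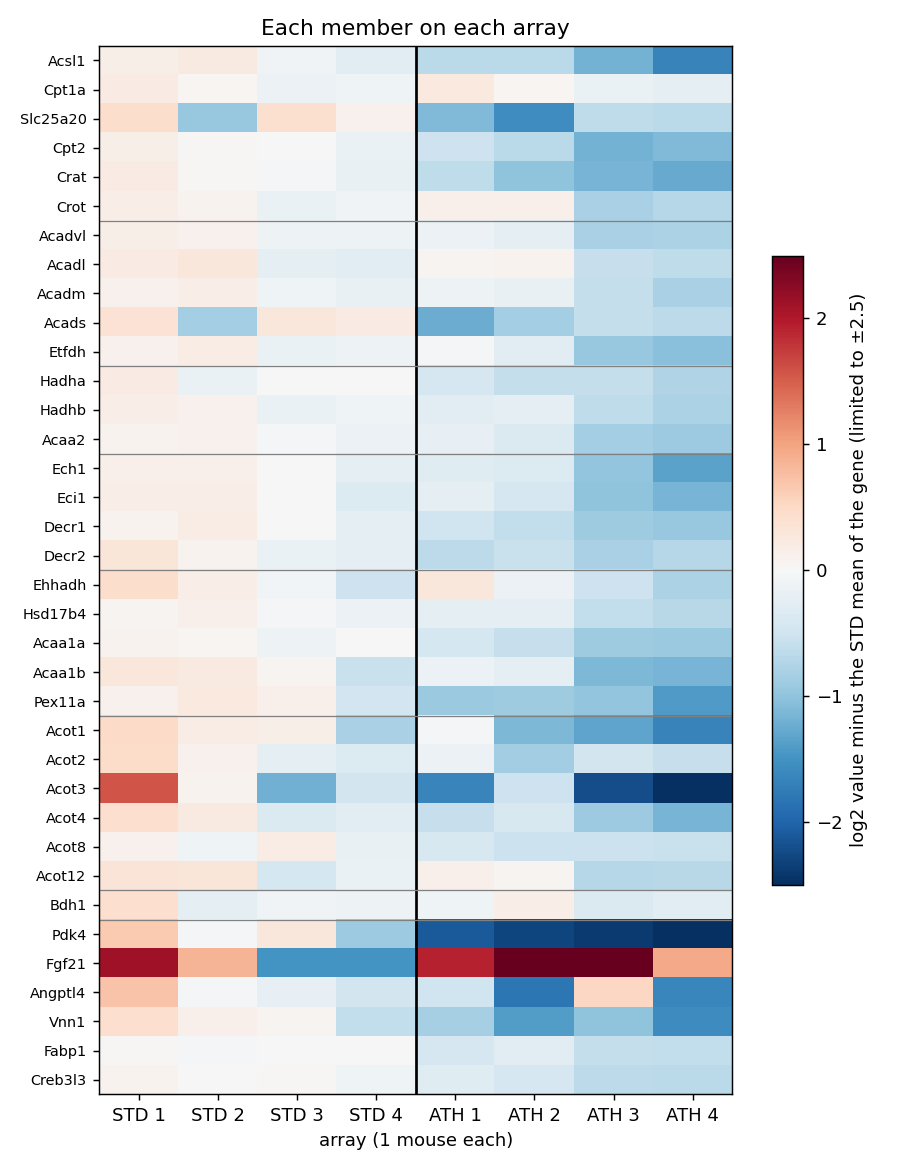
Each member (rows, in the order of roles, separated by grey lines) on each of the 8 arrays, as the scaled log2 signal minus the STD mean of the gene; the colour is limited to ±2.5. Most rows are darkest blue on ATH 3 and ATH 4; Slc25a20 and Acads are bluest on ATH 1 or ATH 2 and pale blue on STD 2, and Fgf21 is the one red row.

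Markers of the cell types in the tissue were read on the same arrays. In whole liver, fewer cells of a type and less RNA per cell cannot be told apart. Of 18 detected hepatocyte markers, 17 had a lower mean on ATH (94.4%, against 65.1% of all genes). The 5 that fell (27.8%, against 5.3% of all genes) were Tat, Tdo2, Ass1, Arg1 and Hpd. The median log2 fold change of the 18 was -0.35, and their summed linear signal was 5655 to 5929 on STD and 3856 to 5110 on ATH. All 20 markers of macrophages and Kupffer cells had a higher mean on ATH and 12 rose, against 4.05% of all genes. These 20 had a median of 1.91 and a summed signal of 118 to 143 on STD and 228 to 928 on ATH. Their median was highest on ATH 3 and ATH 4, the arrays lowest in the members. The part of either list in the members' differences was not tested. Centred on the hepatocyte markers, an alternative chosen after seeing the data, the members had a median of -0.26 against 0.23 for all genes. In that setting 29 of 36 were lower, a share not counted over all genes, and Pdk4 alone fell (0.429% of all genes fell).

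**Figure D4:**
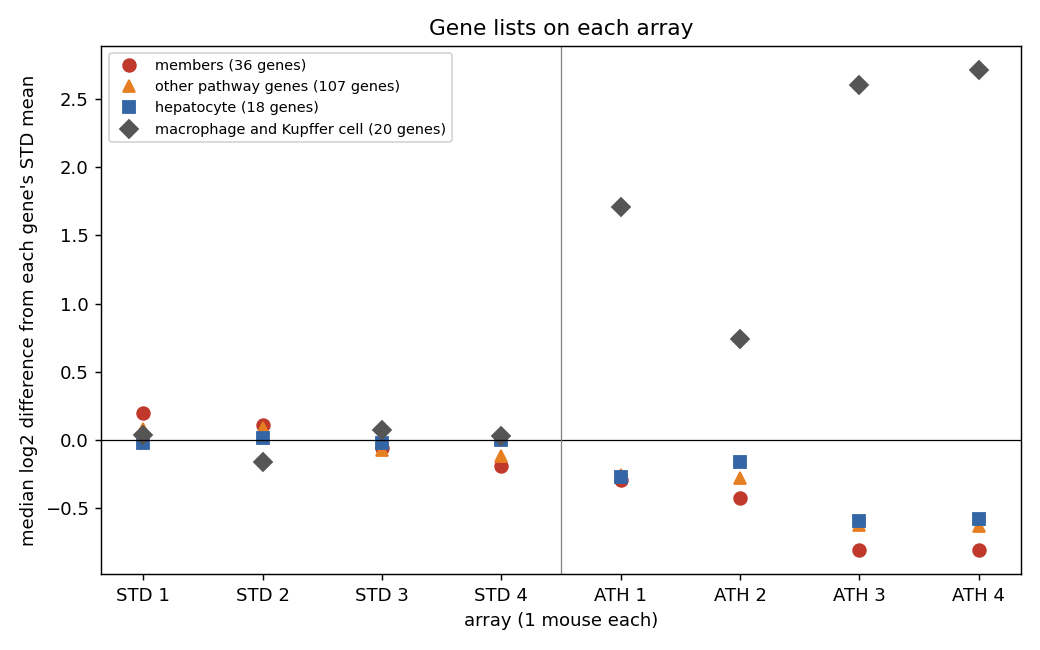
Median over each gene list of the log2 difference from the gene's STD mean, per array, for the 36 members, 107 other genes of the pathway, 18 hepatocyte markers and 20 macrophage and Kupffer cell markers. On the ATH arrays the members lie between -0.81 and -0.29, the hepatocyte markers between -0.59 and -0.16, and the macrophage markers between 0.74 and 2.71.

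The rest of the pathway was read from a list of 110 other genes, of which 107 had a detected probe. Of these, 95 had a lower mean on ATH (88.8%, against 65.1% of all genes), with a median log2 fold change of -0.45. By limma 24 fell (22.4%) and 2 rose, whereas 5.3% of all genes fell and 4.05% rose. PPAR-alpha and its partners, 13 genes, all had a lower mean on ATH, with a median of -0.15 against -0.14 for all genes. None of the 13 passed by limma. At an unadjusted p under 0.05, 3 of the 13 were lower, and so were 19.5% of all genes. Ppara itself had 4.28, 4.25, 3.60 and 3.05 on STD and 3.81, 3.80, 3.33 and 2.96 on ATH. Its log2 fold change was -0.32 (95% confidence interval -1.02 to 0.38, adjusted p = 0.524), and it was 0.13 without scaling. The partner receptor Rxra also differed by -0.32 (adjusted p = 0.144; 0.13 without scaling) and the coactivator Ppargc1a by -0.53 (adjusted p = 0.107).

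Among other PPAR-alpha targets the differences were larger, and 8 of 29 fell (27.6%, against 5.3% of all genes). Cyp4a14, a microsomal fatty acid omega-hydroxylase, went from 4.95, 3.07, 2.32 and 1.41 on STD to 1.08, -0.26, -1.61 and -2.76 on ATH. The log2 fold change was -3.82 (SE 0.92, adjusted p = 0.0427 by limma), 7.06% of the STD level, with a range of more than 3 log2 units within each diet. Its relative Cyp4a10 fell by 1.16 on the log2 scale (adjusted p = 0.0179), the retinol saturase Retsat by 1.30 (0.0388), the malic enzyme Me1 by 1.26 (0.0216) and the fat storage protein Fitm1 by 1.36 (0.00552). Lpl, lipoprotein lipase, which macrophages also make, rose by 2.31 (SE 0.22, adjusted p = 0.00365), from between 1.15 and 1.81 on STD to between 3.40 and 4.12 on ATH.

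In the peroxisome, 7 of 22 other genes fell (31.8%, against 5.3% of all genes). Among them, the transporter Abcd3 fell by 0.88 on the log2 scale, the coenzyme A hydrolase Nudt7 by 1.06 and Hacl1, which acts on branched chains, by 1.36. Of 6 other carnitine genes 2 fell (33.3%). Of these, Acacb, the acetyl-CoA carboxylase whose product inhibits Cpt1a, had a log2 fold change of -1.80 (SE 0.21, adjusted p = 0.00587 by limma). Of 17 other mitochondrial enzymes 2 fell (11.8%) and 1 rose, the thioesterase Acot9 (1.17, adjusted p = 0.0243 by limma). Of 8 genes of ketone body synthesis and use none passed by limma. At an unadjusted p under 0.05, 2 of them were lower and 1 was higher, and 19.5% of all genes were lower. Of 12 genes of fatty acid uptake and activation, 5 fell (41.7%).

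Across the alternatives, the gap between the median of the members and that of all genes moved less than the counts did. It was -0.50 under the main scaling. Scaling by a constant per array leaves it the same by construction, and it was -0.37 with quantile normalization, -0.38 with normexp background correction and between -0.54 and -0.42 with an array left out. Of the 36 members, 28 had a lower mean on ATH in every alternative in which they were measured. This was not counted over all genes, of which 65.1% had a lower mean under the main scaling.

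**Figure D5:**
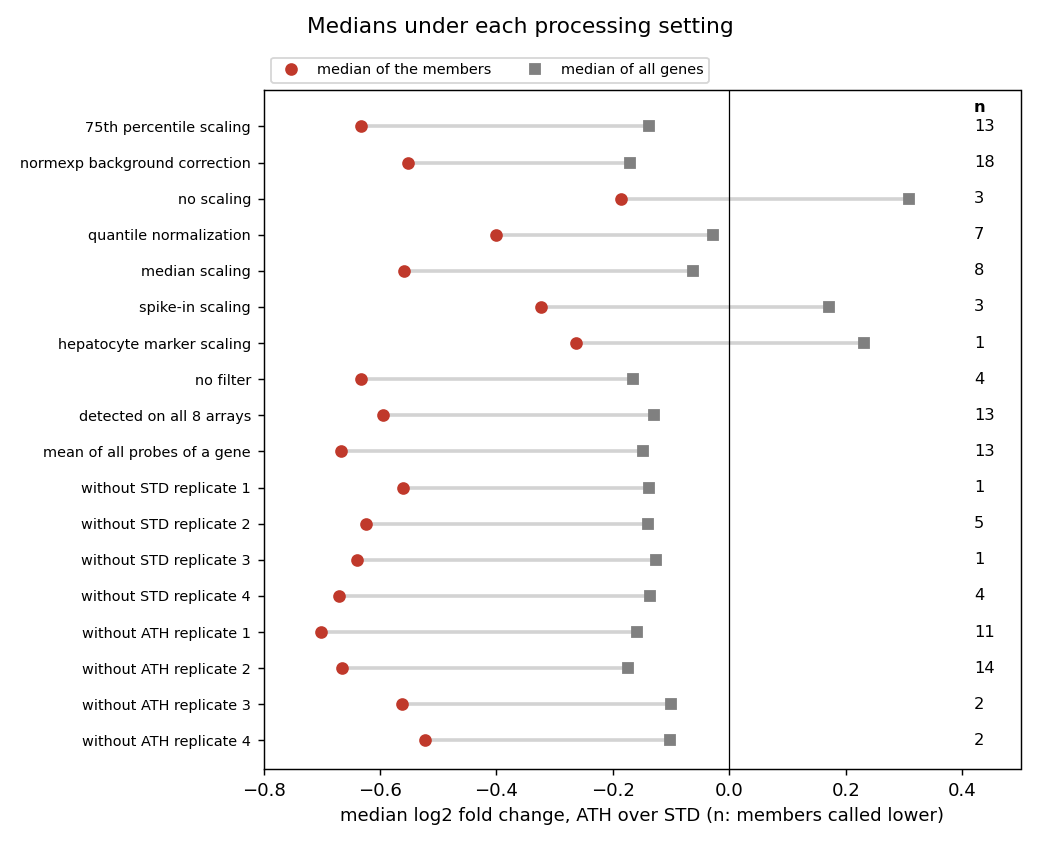
Median log2 fold change of the members (red circles) and of all genes (grey squares) under 18 processing settings, with the number of members that fell, n, at the right. The methods' t-test, with which 0 members fell, the replicate block and the authors' log2 table are not drawn. The members' median is below 0 and below that of all genes in all 18 settings drawn, from -0.70 to -0.19, while n runs from 1 to 18, the last with normexp background correction, where 17% of all genes fell.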

How the data were processed

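The members and the gene lists were chosen with earlier results of these data known. Scanner output came from Agilent Feature Extraction 9.5, and the deposited intensity of each spot (gProcessedSignal) is background-subtracted. A log2 table from the authors was deposited too, and equals the log2 scanner values up to a constant per array and per probe for 100% of detected probes (tolerance 0.001). Control spots and outlier-flagged spots were left out, spots of a probe were averaged on the log2 scale, and each array was centred on its 75th percentile. A probe with only flagged spots on an array kept their mean there and was not counted as detected on it. A probe counted as detected when it was well above background and positive and significant on 3 or 4 arrays of one or the other diet. Diet was tested with limma 3.58.1 in R 4.3.3 (two-sided, Benjamini-Hochberg over probes), and the steps were tested on simulated data. All members were described. Of the other pathway genes, the 12 with the largest change among those past 5% were named, and Ppara, Rxra, Ppargc1a and Cyp4a14 whatever their values; some genes under this rule are not reported here. Of the marker lists, those set beside the members are given. Probes were named through RefSeq accessions or symbols, and promoter windows came from RefSeq (GRCm38.p6). The number of arrays limits the precision, and p-values measure the spread between mice.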

Additional observations from a re-analysis of the deposited data

Results flagged for a closer look

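In a group of 4 mice, an array was picked out when its gap to the nearest of the others took up most of the range of the group, by Dixon's test at 95%, which chance passes in about 1 of 20 groups. Of 104 groups (2 diets of 52 genes), 3 were picked out. Acads was at 2.658 on STD replicate 2, against 3.724 to 3.875 on the other STD arrays. Pex11a was at 4.366 on ATH replicate 4, against 4.798 to 4.882 on the other ATH arrays. Nudt7 was at 7.531 on ATH replicate 2, against 6.514 to 6.687 on the others.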

How the results depend on the processing

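The number of members that fell, 13, became 3 without scaling, 7 with quantile normalization, 8 with median scaling, 3 with spike-in scaling, 1 with hepatocyte marker scaling, 4 with no filter on dim probes, 0 with the methods' t-test and 1 at a false discovery rate of 1%, and ranged from 1 to 14 with one array left out. For the other pathway genes the 24 that fell became, in the same order, 7, 11, 15, 9, 1, 8, 0 and 2, and 44 with normexp, and ranged from 4 to 30. The 2 that rose became 4 with normexp, 5 without scaling, 1 with hepatocyte marker scaling, 0 with the t-test and 1 at 1%, and ranged from 1 to 4. Of all genes, 0.0483% fell with the t-test and 1.93% with no filter. The t-test took no spread from other genes, and no filter meant more tests and a fit that included dim probes. What moved the counts was not tested. In each alternative 0 members rose. Meanwhile the share of all genes that rose was 4.05% under the main scaling and 25.9% for unscaled arrays. Arrays scaled on the spike-in probes gave 9.68%, those centred on hepatocyte markers 1.03%, and the t-test 0.0181%. The median of the members, -0.63, became -0.19 without scaling, -0.40 after quantile normalization, -0.32 under spike-in scaling and -0.26 under hepatocyte marker scaling, and ranged from -0.70 to -0.52 with one array left out. The direction turned for some genes that had not passed. Without scaling these were Cpt1a (0.42), Crot (0.13), Acadl (0.18), Acadm (0.013), Ehhadh (0.15), Acot12 (0.14), Bdh1 (0.30), Ppara (0.13) and Rxra (0.13). With spike-in scaling they were Cpt1a (0.28), Acadl (0.043), Ehhadh (0.015), Acot12 (0.0074) and Bdh1 (0.16). With hepatocyte marker scaling they were Cpt1a (0.34), Crot (0.052), Acadl (0.10), Ehhadh (0.075), Acot12 (0.067), Bdh1 (0.22), Ppara (0.050) and Rxra (0.052). With quantile normalization they were Cpt1a (0.18) and Bdh1 (0.16). Cpt1a was also at 0.0028 with normexp, at 0.048 with median scaling, and ranged from -0.11 to 0.042 with one array left out, above 0 without ATH replicate 3 (0.020), ATH replicate 4 (0.042) and STD replicate 1 (0.041). With the replicate block, 11 members fell, 9 of them among the 13. Those that no longer passed were Hadha (adjusted p = 0.0501 by limma), Acot8 (0.0617), Fabp1 (0.0706) and Creb3l3 (0.0597), and Acot1 (0.0485) and Acot4 (0.0459) passed instead. Deviations of same-numbered arrays from their diet means correlated at 0.0996, 0.229, 0.181 and 0.175 across probes, all positive. No label pairs the mice by number, and the lowest correlation was just under the cut set for pairing. The block was therefore kept as an alternative, and whether the numbers mark a shared batch was not tested. Of the 8 arrays, 7 correlated best with their own number and ATH replicate 1 did not. With 4 arrays per diet, the intervals of members that did not pass remain wide.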
